A study of Mus musculus with 16 samples.

Results

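Ccl3, Ccl4, Ccl5, Ccl6 and Ccl9 are 5 chemokine ligand genes that lie side by side on mouse chromosome 11. They were taken by name, and all 5 were present among the 11713 genes of the deposited table. Their UMIs (unique molecular identifiers, each standing for 1 captured transcript) came to 366 for Ccl3, 589 for Ccl4, 23332 for Ccl5, 1601 for Ccl6 and 697 for Ccl9. Chemokines are small secreted proteins that bind receptors on leukocytes and direct their movement. Ccl3, Ccl4 and Ccl5 are known as products of NK cells and CD8 T cells, and Ccl3 and Ccl5 bind Ccr1. Ccl6 and Ccl9 are rodent ligands of Ccr1 known from macrophages and other myeloid cells.

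The cells came from spleens of 9-month-old female BALB/cJ mice that carried no stated allele or treatment. CITE-seq had been used, a droplet method that counts a cell's mRNA together with surface antigens through barcoded antibodies. The labels give 2 sources, Main1 and Main2, with 4 RNA and 4 antibody samples each that the tables do not separate, so each source was treated as 1 library. The labels do not say whether the sources are different animals, and the spread between these 2 libraries may be technical. The main fit below removed the shift common to a library. Its p-values measure how far differences between cell classes varied between the libraries, pooled over the classes tested. That spread was drawn towards the spread of other genes, with 13 residual and 81.8 prior degrees of freedom. A gene's own disagreement between libraries therefore weighs little in its p-value.

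Main1 held 3179 droplets with 7964712 UMIs, Main2 held 3918 droplets with 10174799 UMIs, and the median droplet had 1789 and 1778 UMIs. The libraries shared 14 cell barcodes. Every droplet was placed in 1 class by its antibody counts alone, and 14 classes with at least 10 droplets in each library entered the tests. Each gate was checked against RNA markers that gates did not use: the NK list summed to 16518 and 16262 CPM (a gene's UMIs scaled to equal library totals) in the NK gate, and the neutrophil list to 357151 and 352932 CPM in the neutrophil gate. The conventional DC list had only 625 and 904 CPM in its own gate, with Clec10a at 0, and 1008 and 696 CPM in the plasmacytoid DC gate, so the name of the conventional DC gate rests on its antibodies. The red pulp macrophage list had 13035 and 7621 CPM in its own gate, where the erythroid list had 42286 and 99181 CPM. Of its 63 droplets, 45 held at least 2 macrophage marker genes and 13 at least 2 erythroid ones. The monocyte list had 32733 and 33911 CPM in its own gate, where the plasma cell list had 3846 and 6955 CPM. The erythroid list had 182 CPM in monocytes in Main1 and 21882 CPM in Main2. Other gates had more of it in Main1. The CD8 T gate had 41749 CPM in Main1 against 195 CPM in Main2, and the NK gate 20926 against 280 CPM. The neutrophil gate had 26451 against 156 CPM, the other CD11b gate 26074 against 145 CPM and the CD4 T gate 8598 against 222 CPM. The part of erythroid RNA in the levels below was not tested. Droplets positive for CD79b together with CD3, Ly6G, NKp46 or both F4/80 and CD106 were called mixed (774 droplets), and they are given apart.

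In the GENCODE M21 annotation of GRCm38 (mm10) the 5 genes span 139 kb of chromosome 11, from 83525778 to 83664683. The order is Ccl5 (83525778 to 83530518), Ccl9 (83572919 to 83578636), Ccl6 (83587882 to 83593087) and Ccl3 (83647844 to 83649355), all on the minus strand, then Ccl4 (83662584 to 83664683) on the plus strand. They are 5 of the 6 genes annotated there as protein-coding, the other being Rpl9-ps1. A noncoding gene on the plus strand, E230016K23Rik (83582056 to 83623693), covers Ccl6 and was not analysed here, and no source here gives how strand was used in counting. All belong to the CC family, named for a pair of adjacent cysteines. The coding stretch around that pair is shown because it marks the genes as 1 family and lets a reader judge how far their transcripts could be mistaken for each other. Each line is 60 bases of coding exon, read 5′ to 3′ on the gene's own strand, with the adjacent cysteine codons in capitals.

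Ccl3: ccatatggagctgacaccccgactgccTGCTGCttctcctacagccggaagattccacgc
Ccl4: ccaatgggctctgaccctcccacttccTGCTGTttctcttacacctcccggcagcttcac
Ccl5: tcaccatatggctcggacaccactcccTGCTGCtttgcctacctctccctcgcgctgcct
Ccl6: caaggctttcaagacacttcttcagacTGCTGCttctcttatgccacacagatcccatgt
Ccl9: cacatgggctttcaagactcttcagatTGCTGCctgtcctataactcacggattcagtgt

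The sequences are those of the GENCODE M21 transcripts. Over the whole coding sequence, Ccl3 and Ccl4 were identical at 68.4% of aligned positions, and Ccl6 and Ccl9 at 64.6%. The lowest value of the 10 pairs was 45.4%, for Ccl5 and Ccl9. The longest exact run shared by 2 of the transcripts was 25 bases, between Ccl6 and Ccl9, and no other pair shared more than 13 bases.

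Ccl5 was highest in the NK gate. In NK droplets (CD3-negative, NKp46 at 5 or more counts) its level was 32889.6 CPM in Main1 (95% Poisson interval 31662 to 34152) and 32990.1 CPM in Main2 (32043 to 33958). These intervals, like all intervals on single values here, cover counting error only. A UMI of Ccl5 was found in 91.7% of 121 NK droplets (exact binomial interval 85.3 to 96.0), and the median NK droplet held 54 of them. Ccl5 alone made up 3.30% of all UMIs of that gate. Both libraries gave nearly the same level, and no other tested class reached it in either library. The T marker list had 1591 and 1622 CPM in the NK gate, against 6856 and 5506 CPM in the CD8 T gate. Of the 121 NK droplets, 109 held at least 2 NK marker genes and 60 at least 2 T marker genes. Those 60 held 4017 of the 7305 Ccl5 UMIs, and their part in the level and in the tests of this gate was not tested.

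Next in order stood the CD8 T gate, at 5660.4 CPM in Main1 (14 droplets) and 11409.5 CPM in Main2 (43 droplets). Only 45.6% of CD8 T droplets held a UMI of Ccl5 (interval 32.4 to 59.3), and in Main1 1 droplet carried 77.5% of the UMIs. The NK marker list had 319 and 1800.3 CPM in this gate, with Ncr1, Klrb1c and Klre1 at 0. In all, 12 of the 57 droplets held at least 2 NK marker genes and 831 of the 1734 Ccl5 UMIs, and their part in the level and in the tests of this gate was not tested. The gate of CD11b-positive droplets outside all other classes followed at 4875 and 5852 CPM, and its range overlapped that of the CD8 T gate. Of the 787 Ccl5 UMIs in this gate, 779 lay in 11 droplets that held at least 2 NK marker genes. Droplets positive for both CD4 and CD8a had 3001 and 2405 CPM. Their median depth of 3464 UMIs was above the 1889 of the CD4 T gate, and 53 of 193 held at least 2 B-cell marker genes, whose part in the level was not tested. The CD4 T gate had 732 and 609 CPM, with a UMI in 22.2% of 279 droplets. The 27 droplets with CD3 but neither CD4 nor CD8a were too few in Main1 (6) to be tested, and they had 19739.6 and 5525 CPM.

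**Figure D1:**
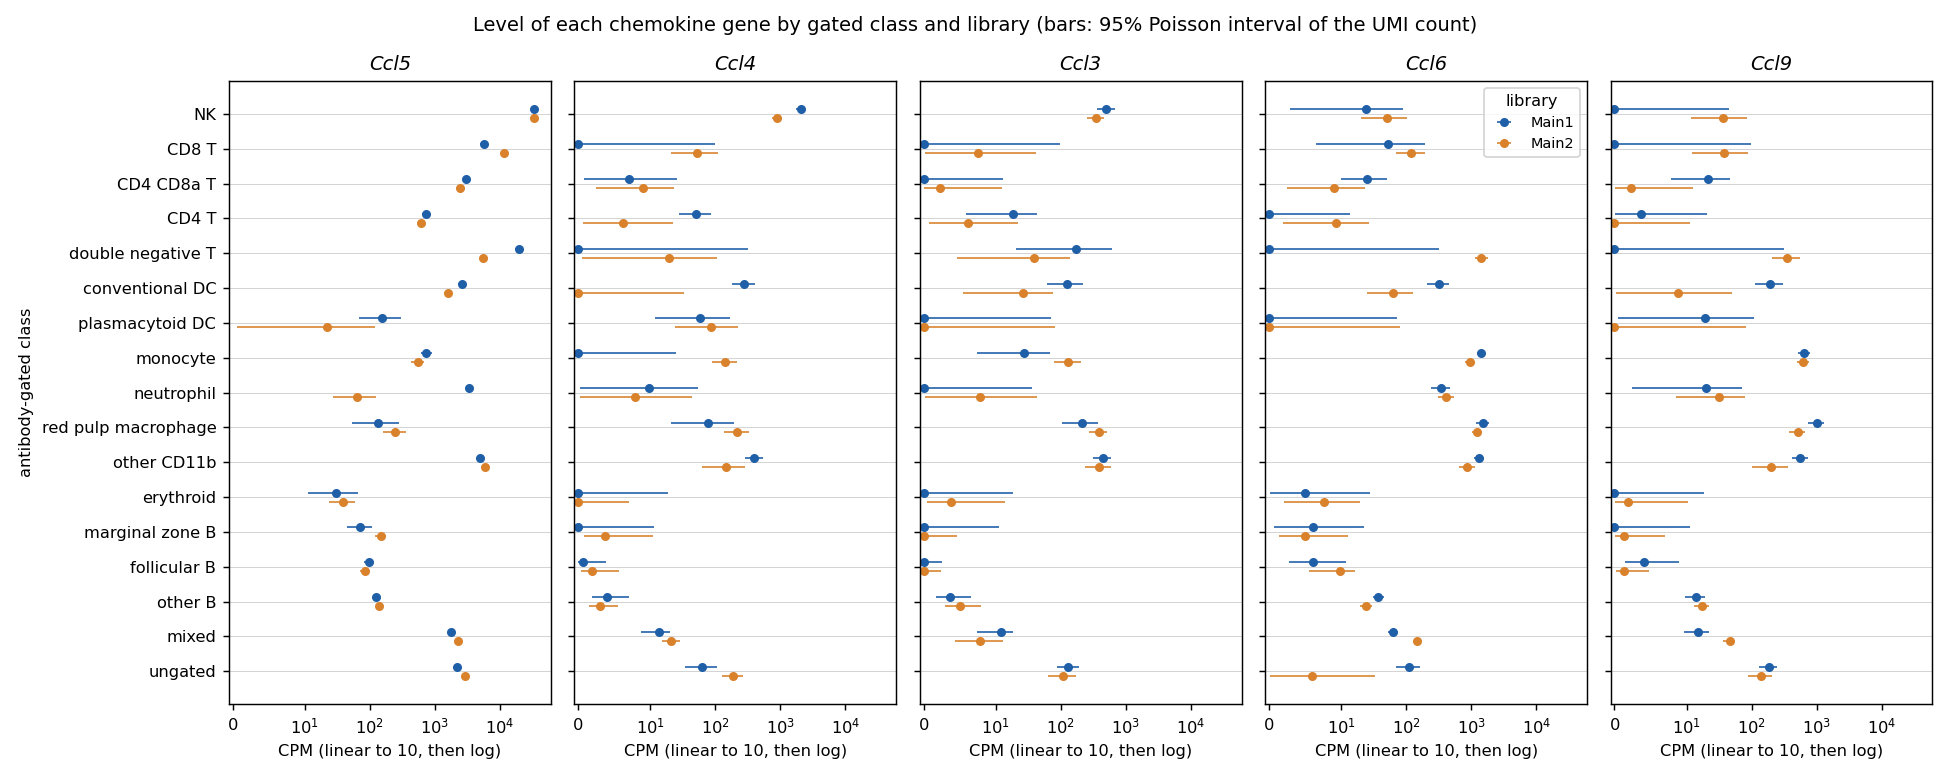
Each panel plots the level of 1 gene in CPM (linear up to 10, logarithmic above) for every antibody-gated class, with 1 point per library and bars for the 95% Poisson interval of the UMI count. Ccl5 stands highest in the NK gate in both libraries, while among tested classes Ccl6 and Ccl9 stand highest in the monocyte, red pulp macrophage and other CD11b gates; the untested double negative T class reaches 1425 CPM of Ccl6 in Main2.

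The conventional DC gate (CD11c and MHC class II positive) held Ccl5 in most of its droplets. A UMI was found in 54.8% of 31 droplets in Main1 and 64.9% of 37 in Main2, together 60.3% (interval 47.7 to 72.0). The follicular B gate, which is not known for Ccl5 and served as the background of free RNA, had 14.1% (12.4 to 15.8) at a median of 1546 UMIs per droplet against 2665.5 in the DC gate. With every droplet thinned to 1000 UMIs the shares were 39.7% and 9.15%. Most of these DC droplets held few copies: the median was 2 UMIs in those that held any, against 59 in NK droplets. The levels of 2625 and 1589 CPM leaned on a few droplets, with 52.8% of the UMIs in 1 droplet in Main1 and 29.8% in Main2. The 8 measured NK marker genes summed to 67.0 and 52.7 CPM in the gate, near the 47.0 and 37.9 CPM of the follicular B gate, with Ncr1, Klrb1c, Prf1, Eomes and Txk at 0. Without the droplets holding 2 or more NK or T marker genes the DC levels were 2814 and 1589 CPM. This left 29 of 31 droplets in Main1 and all 37 in Main2, so the Main2 level could not change.

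Other myeloid gates differed from this. In the monocyte gate (CD11b and Ly6C positive) Ccl5 had 741 and 543 CPM, and 176 of its 190 UMIs lay in 3 droplets with NK markers. Without droplets holding 2 or more NK or T marker genes, the monocyte level was 40.8 and 65.2 CPM, below the 93.1 and 84.1 CPM of the follicular B gate treated the same way. In the neutrophil gate (Ly6G positive) Ccl5 had 3396 CPM in Main1 and 62.5 CPM in Main2, and 235 of the 346 UMIs in Main1 came from 1 droplet. The red pulp macrophage gate (F4/80 and CD106 positive) had 134 and 244 CPM. Mixed droplets held 31.8% of all Ccl5 UMIs, close to the 31.3% of the NK gate.

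**Figure D2:**
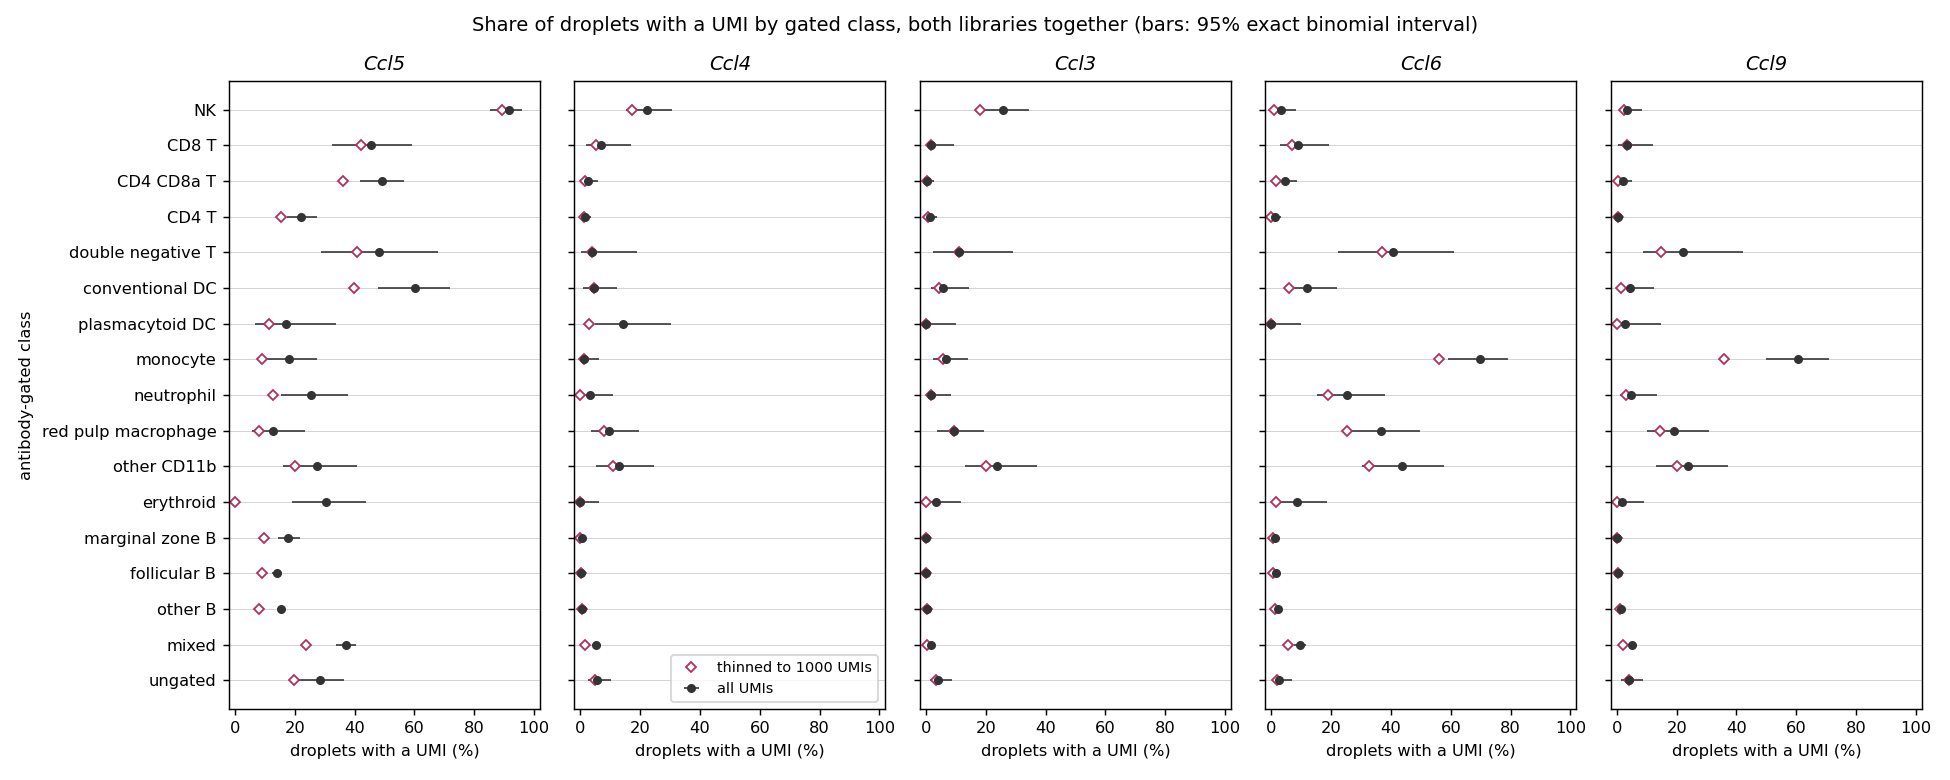
Each panel gives the share of droplets with at least 1 UMI of a gene per class, both libraries together, as filled points with 95% exact binomial intervals and as open diamonds after thinning each droplet to 1000 UMIs. Thinning lowers the Ccl5 share of the conventional DC gate from 60.3% to 39.7% and that of the follicular B gate from 14.1% to 9.15%, while the NK gate stays at 89.3%.

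Within the NK gate Ccl5 was compared along antibodies that mark NK maturation, in which CD27 is known to be lost and CD11b gained. In the upper tertile of CD11b it had 45260 CPM in Main1 and 46218 CPM in Main2, against 13410 and 14565 CPM in the lower tertile. That was 3.38 and 3.17 times higher. By CD27 the order was opposite, with 14736 and 22703 CPM in the upper tertile and 44832 and 39144 CPM in the lower, a ratio of low over high of 3.04 and 1.72. Split at the medians of both antibodies, droplets above for CD27 and at or below for CD11b had 18496 and 16499 CPM, and the opposite corner had 49715 and 48509 CPM. Droplets above for both had 39416 and 50536 CPM and those at or below for both 40009 and 23604 CPM, so among CD11b-high droplets the CD27 order did not hold in Main2. These last groups held 6 to 12 droplets per library. A UMI of Ccl5 was nevertheless present in 81.3% and 80% of the CD11b-low droplets, so the split lay in copies per droplet more than in presence. Median depth was 1540.5 UMIs in the CD11b-high and 1771 in the CD11b-low droplets. Tertiles held 16 to 28 droplets per library, and with 2 libraries these splits are described without a test.

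Within T gates Ccl5 followed CD44, an antigen of antigen-experienced T cells. CD4 T droplets in the upper CD44 tertile had 1754 and 1183 CPM against 93.7 and 43.7 CPM in the lower. CD8 T droplets had 9881 and 13283 CPM against 958 and 1771 CPM, from 5 droplets a tertile in Main1 and 15 in Main2. Upper and lower tertiles did not overlap between libraries in either gate, and median depth was 4107 UMIs in the CD44-high CD8 T droplets against 2128 in the CD44-low ones.

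**Figure D3:**
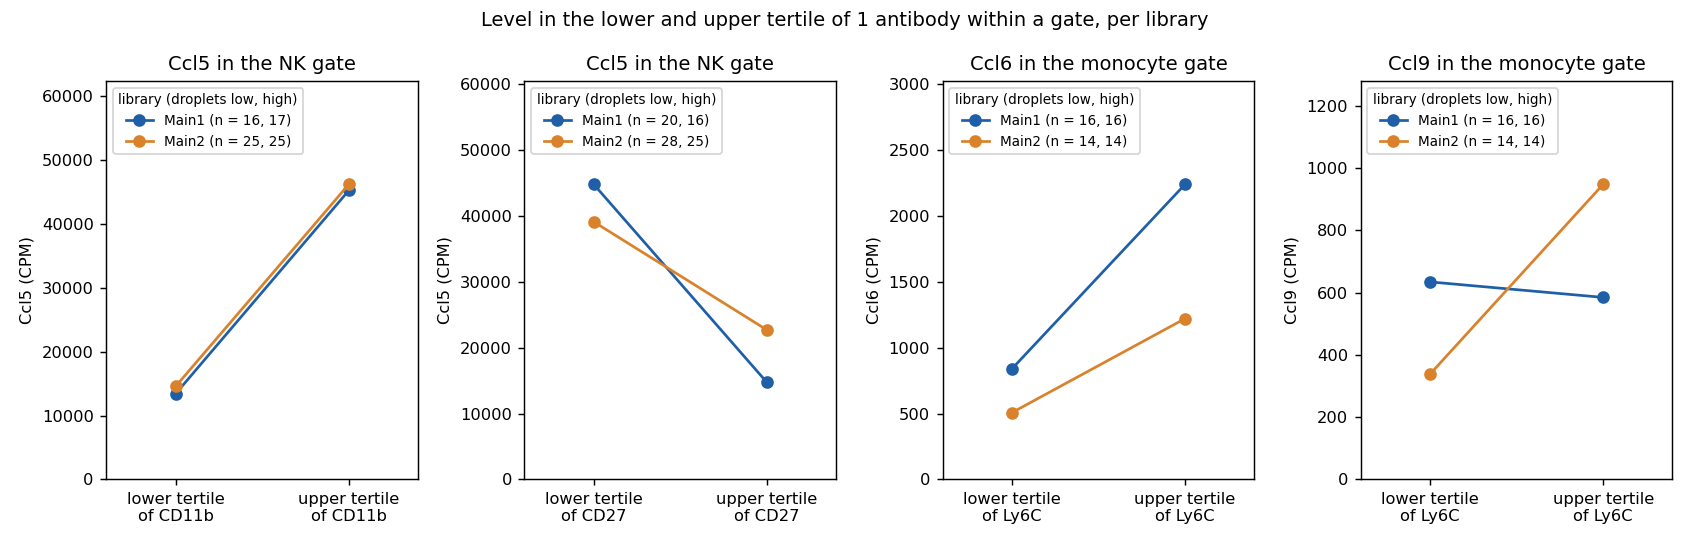
Points give the CPM of Ccl5 in the NK gate and of Ccl6 and Ccl9 in the monocyte gate, in the lower and upper tertile of 1 antibody, joined within each library; the legend gives the number of droplets. Ccl5 is higher with high CD11b and low CD27 in both libraries, Ccl6 is higher with high Ly6C in both, and Ccl9 is lower with high Ly6C in Main1 (584 against 634 CPM) and higher in Main2 (947 against 338 CPM).

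Ccl3 and Ccl4, the closest pair by coding sequence among those 5, were carried by few NK droplets. Ccl4 had 2053 CPM in Main1 and 897 CPM in Main2, with a UMI in 22.3% of NK droplets (interval 15.3 to 30.8). Of its UMIs in the gate, 1 droplet held 89 of 169 in Main1 and another held 103 of 125 in Main2. Of the 27 NK droplets with any, 10 had 2 or more copies and 3 had 50 or more. Ccl3 had 498 and 344 CPM, with a UMI in 25.6% of droplets (18.1 to 34.4), and its top droplet held 43.9% and 50% of the UMIs. In the follicular B gate Ccl4 had a UMI in 0.233% of droplets and Ccl3 in 0 of 1715, which by a limit of 3 counts allows a share of droplets with a UMI of up to 0.175%. NK levels therefore stood far above that background in both libraries, but their size rested on a few droplets. The 60 NK droplets with at least 2 T marker genes held 164 of the 294 Ccl4 UMIs and 49 of the 89 Ccl3 UMIs.

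Both transcripts tended to be found in the same NK droplets. Ccl4 had a UMI in 45.2% of the 31 droplets with Ccl3 and in 14.4% of the 90 without, at median depths of 1592 and 1609 UMIs. The order was the same in both libraries, with 46.2% against 20% in Main1 and 44.4% against 10.9% in Main2. Summed immediate early genes, which mark recent stimulation or handling, had 1794 and 1411 CPM in NK droplets with Ccl3 or Ccl4 and 1609.9 and 2602 CPM in those without, so their order differed between libraries. All 31 droplets with Ccl3 and all 27 with Ccl4 also held Ccl5. By CD11b, Ccl4 had 4129 and 2418 CPM in the upper tertile against 1891 and 110 CPM in the lower. A UMI of Ccl4 was found in 64.7% and 28.0% of droplets against 6.25% and 12.0%. Single droplets weighed heavily in these levels. In Main1, 1 droplet held all 65 Ccl4 UMIs of the lower tertile, and in Main2, 1 held 103 of the 112 of the upper. The Ccl3 levels lay close together in Main1, at 681 against 611 CPM, and further apart in Main2, at 734 against 165 CPM. In both libraries a larger share of droplets held a UMI of Ccl3 in the upper tertile than in the lower. Over both libraries, 1 droplet held most of the Ccl3 UMIs of the lower tertile. Outside the NK gate the next levels of Ccl3 were in the other CD11b gate, at 440 and 382 CPM, and in the red pulp macrophage gate, at 211 and 381 CPM. The ranges of the NK and other CD11b gates overlapped.

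Those myeloid UMIs lay mostly in a small set of droplets with basophil transcripts. Basophils are rare granulocytes that no antibody gate here singles out, and they are known to make Ccl3 and Ccl4 on activation. A droplet was counted as basophil-marker positive when it held a UMI of at least 2 of Mcpt8, Cpa3, Ms4a2, Gata2, Cd200r3 and Hdc. There were 21 such droplets, 14 in Main1 and 7 in Main2, and none of the 5 chemokine genes took part in the choice. Antibodies placed 6 of them in the red pulp macrophage gate, 5 in the other CD11b gate and 5 in none. CD44 was positive in 95.2% of them, CD16/32 in 81.0% and CD11b in 66.7%, and CD106 in 38.1%.

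The 21 droplets held 171 of the 366 Ccl3 UMIs of the series. Their Ccl3 level was 2539 CPM in Main1 (interval 2054 to 3103) and 4686 CPM in Main2 (3692 to 5866), against 10.2 and 11.2 CPM in the other droplets. Ccl4 had 1790.4 and 3145 CPM against 30.1 and 22.8 CPM. Ccl6 had 4730.0 and 8201 CPM against 70.1 and 72.4 CPM, and Ccl9 had 3821 and 3761 CPM against 24.3 and 29.5 CPM. Ccl5 differed from the rest, with 3 UMIs in all 21 droplets and 55.9 CPM, below the 1289.9 CPM of the other droplets. For Ccl3, Ccl4, Ccl6 and Ccl9 the pooled level of basophil-marker droplets was above that of the other droplets in both libraries, and 71.4% to 85.7% of the 21 droplets held a UMI of a given gene.

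These 4 transcripts occurred together there. All 4 had a UMI in 14 of the 21 basophil-marker droplets, and in 0 of the 7076 others. In the others, 398 droplets held 1 of the 4 and 148 held 2. Of the UMIs of the red pulp macrophage gate, the 6 basophil-marker droplets held all 50 of Ccl3, 21 of 26 of Ccl4, 105 of 206 of Ccl6 and 72 of 104 of Ccl9. In the other CD11b gate, 5 droplets held 51 of 63 UMIs of Ccl3, 42 of 46 of Ccl4, 110 of 173 of Ccl6 and 44 of 64 of Ccl9. In the conventional DC gate 1 droplet held 25 of 35 Ccl6 UMIs and 16 of 18 Ccl9 UMIs.

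**Figure D4:**
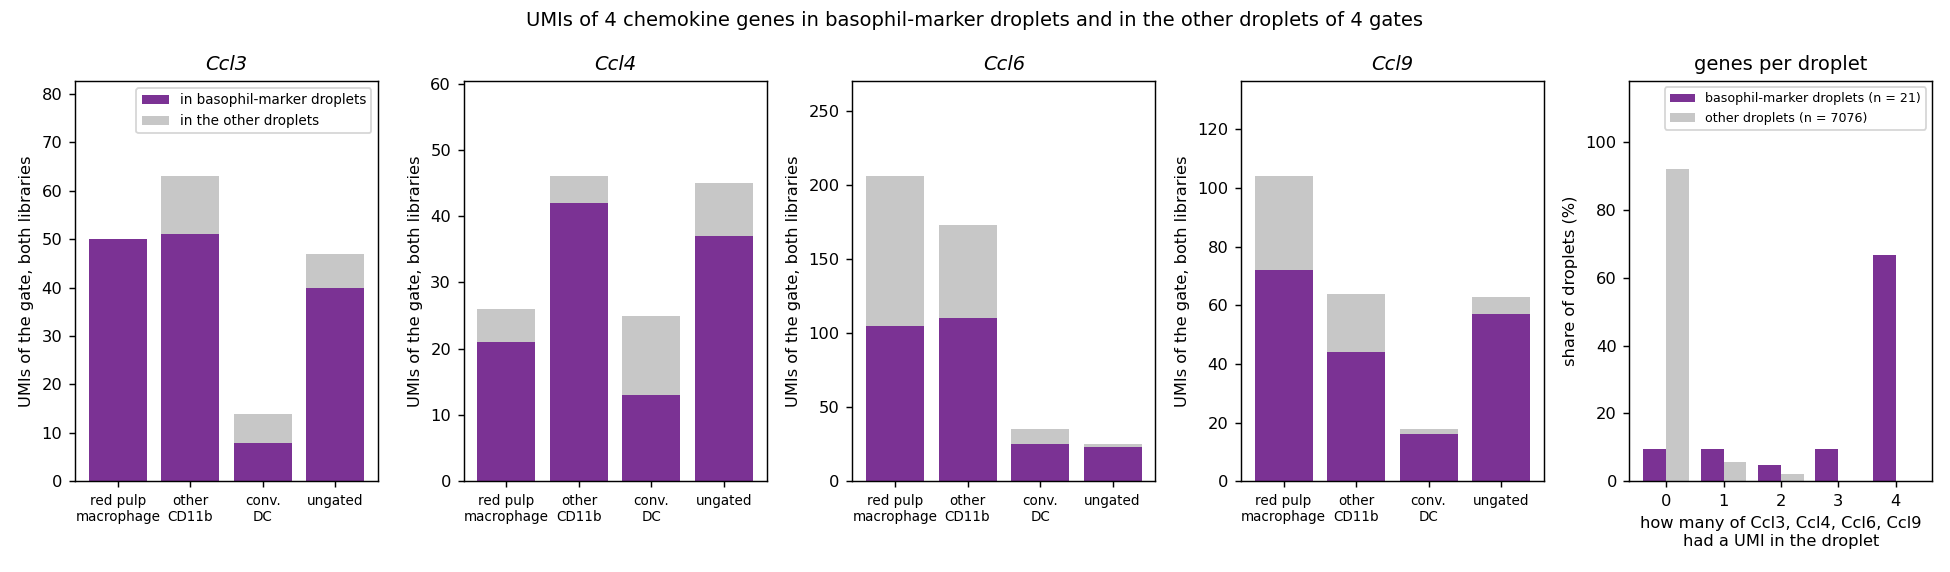
The left 4 panels stack the UMIs of 4 genes in 4 gates, both libraries together, into those in basophil-marker droplets (purple) and those in the remaining droplets (grey); the right panel gives the share of droplets by how many of the 4 genes had a UMI. All 50 Ccl3 UMIs of the red pulp macrophage gate are purple, and 14 of 21 basophil-marker droplets held all 4 genes.

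Ccl6 and Ccl9 were the monocyte pair. In the monocyte gate Ccl6 had 1387 CPM in Main1 (interval 1204 to 1590) and 943 CPM in Main2 (793 to 1114), with a UMI in 69.7% of 89 droplets (59.0 to 79.0). Ccl9 had 633 and 611 CPM and a UMI in 60.7% (49.7 to 70.9). No monocyte droplet dominated: the top droplet held 7.28% and 8.63% of the Ccl6 UMIs, and 14.9% and 8.89% of the Ccl9 UMIs. In the follicular B gate 24 of 1715 droplets held Ccl6 and 8 held Ccl9. Both genes were therefore present in most monocyte droplets and rare in the follicular B gate.

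Red pulp macrophage droplets had 1514 and 1239 CPM of Ccl6 and 997 and 507 CPM of Ccl9. Both ranges overlapped those of the monocytes, while fewer droplets carried the genes, 36.5% for Ccl6 and 19.0% for Ccl9. Without the basophil-marker droplets, Ccl6 stood at 1604 CPM in Main1 and 238 CPM in Main2, and Ccl9 at 391 and 134 CPM. In Main1, 1 droplet held 59 of the 79 Ccl6 UMIs of the gate. Neutrophils had Ccl6 at 344 and 406 CPM but Ccl9 at only 19.6 and 31.2 CPM, from 6 UMIs. Plasmacytoid DC droplets held no UMI of Ccl6, which in 35 droplets allows, by the same limit, a share with a UMI of up to 8.57%.

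The 2 genes were found together within monocytes. Ccl9 had a UMI in 77.4% of the 62 monocyte droplets with Ccl6 and in 22.2% of the 27 without, at median depths of 3066.5 and 2713 UMIs. After thinning to 1000 UMIs the shares were 48.0% and 20.5%. By Ly6C, the antigen of classical monocytes, Ccl6 had 2240 and 1221 CPM in the upper tertile against 839 and 506 CPM in the lower. Ccl9 had 584 and 947 CPM against 634 and 338 CPM, so its order differed between the libraries. The lower tertile also had 2189 and 1426 CPM of Ccl5, against 19.5 and 36.4 CPM in the upper. In the whole gate, 176 UMIs of Ccl5 lay in 3 droplets with NK markers. Of its 89 droplets, 79 held at least 2 monocyte marker genes, and these held 99.4% of the Ccl6 UMIs. The part of the other droplets in the Ly6C order was not tested. Over all droplets, 92.1% of the Ccl6 UMIs and 84.8% of the Ccl9 UMIs lay in the 969 droplets positive for CD11b.

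Ccl6 and Ccl9 lie next to each other and stood highest in the same tested classes. The 250 bases before the start of each are therefore shown, from RefSeq on GRCm38.p6. Capitals mark matches, on either strand, to TATAAA, to the AP-1 letters TGANTCA, to the PU.1 core GAGGAA, to the C/EBP letters TTGCNNCA and to the ETS core AGGAAG, which was chosen after the sequences were seen.

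Ccl6 (chr11:83593088-83593337, minus strand): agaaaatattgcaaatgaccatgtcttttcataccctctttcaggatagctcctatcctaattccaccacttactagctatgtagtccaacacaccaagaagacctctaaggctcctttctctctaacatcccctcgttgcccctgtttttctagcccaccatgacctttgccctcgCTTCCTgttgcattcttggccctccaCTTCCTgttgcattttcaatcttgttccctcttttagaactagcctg
Ccl9 (chr11:83578637-83578886, minus strand): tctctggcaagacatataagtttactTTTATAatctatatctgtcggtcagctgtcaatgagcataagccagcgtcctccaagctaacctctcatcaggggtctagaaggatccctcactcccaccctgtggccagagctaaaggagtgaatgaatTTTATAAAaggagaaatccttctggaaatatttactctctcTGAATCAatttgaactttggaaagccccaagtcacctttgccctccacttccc

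Ccl6 held 2 matches to AGGAAG, which 29.5% of all 32851 promoters of this length hold, and no match to the other letters. Ccl9 held 3 matches to TATAAA (in 12.4% of promoters), of which a pair overlap, and 1 to TGANTCA (in 6.75%). None of the listed motifs was found in both, while the best local alignment of the 2 promoters was identical at 16 of 17 bases. GAGGAA is in 23.3% of promoters and TTGCNNCA in 9.59%.

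Tests between classes were run with edgeR's quasi-likelihood method on UMIs summed per class and library, over 9536 genes, with a Benjamini-Hochberg adjusted p under 0.05 as the threshold. Against the CD8 T gate, the NK gate had 3 of the 5 genes higher, where 1.88% of all genes tested passed, 0.933% as higher and 0.944% as lower. Ccl3 had 89 UMIs against 1, a ratio of pooled CPM of 68.6 (exact interval 12.0 to 2741; edgeR adjusted p 1.47e-08). This interval, like those of the other ratios below, treats pooled UMIs as independent and covers counting error only. The top droplet held 43.9% of the NK UMIs in Main1 and 50% in Main2. Ccl4 was higher by a log2 fold of 4.80 (SE 0.50, edgeR adjusted p 1.03e-12), from 294 UMIs against 7, and of the 11 fits DESeq2 alone missed the threshold (adjusted p 0.0681). With antibodies scaled within each droplet the fold was 2.29, and without the top droplet of each class and library 3.87. Ccl5 was higher by 1.81 (SE 0.39, edgeR adjusted p 0.00164), and it passed in 9 of 11 fits, missing the threshold with DESeq2 (adjusted p 0.454) and with antibodies scaled within each droplet (adjusted p 0.341). Ccl6 and Ccl9 had at most 18 UMIs in either class and did not pass. The median log2 fold of the 5 genes was 1.81, against 0.07 over all genes.

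Between the CD8 T and CD4 T gates 0.619% of genes passed (0.294% higher and 0.325% lower in the CD8 T gate). Of the 5 genes 2 passed, both higher, with a median log2 fold of 3.54 against -0.25 over all genes. Ccl5 was higher in the CD8 T gate by a log2 fold of 3.54 (SE 0.43, edgeR adjusted p 1.32e-09), and it passed in all 10 fits that gave a value. Ccl6 passed as well (edgeR adjusted p 3.31e-04), from 18 UMIs against 3, a ratio of 20.99 (6.13 to 111). Of those 18 UMIs, 15 lay in droplets holding at least 2 monocyte marker genes, whose part in the difference was not tested, and the call passed in 6 of 9 fits, with an adjusted p of 0.182 without the top droplets and 0.555 in droplets under 4000 UMIs.

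Against monocytes, where 7.49% of genes passed and 4.47% were lower in neutrophils, the neutrophil gate had 3 of the 5 genes lower and 1 higher (3.02% of all genes were higher). Their median log2 fold was -2.57, against -0.24 over all genes. Ccl9 was lower by a log2 fold of -4.15 (SE 0.49, edgeR adjusted p 4.05e-11) and passed in all 11 fits. Ccl6 was lower by -1.19 (SE 0.21, edgeR adjusted p 1.31e-05), and it passed in 8 of 11 fits, not with DESeq2 (adjusted p 0.385). Neutrophil and monocyte libraries did not overlap for either gene. Ccl3 had 1 UMI against 23, a ratio of monocyte to neutrophil CPM of 17.9 (2.90 to 736; edgeR adjusted p 0.0292). That call passed in 6 of 10 fits, and with antibodies scaled within each droplet the log2 fold was -0.24 (adjusted p 1). Ccl5 was called higher in neutrophils (1.73, SE 0.42, edgeR adjusted p 0.00231) and passed in 8 of 11 fits, but without Main1 the fitted fold was -2.78.

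**Figure D5:**
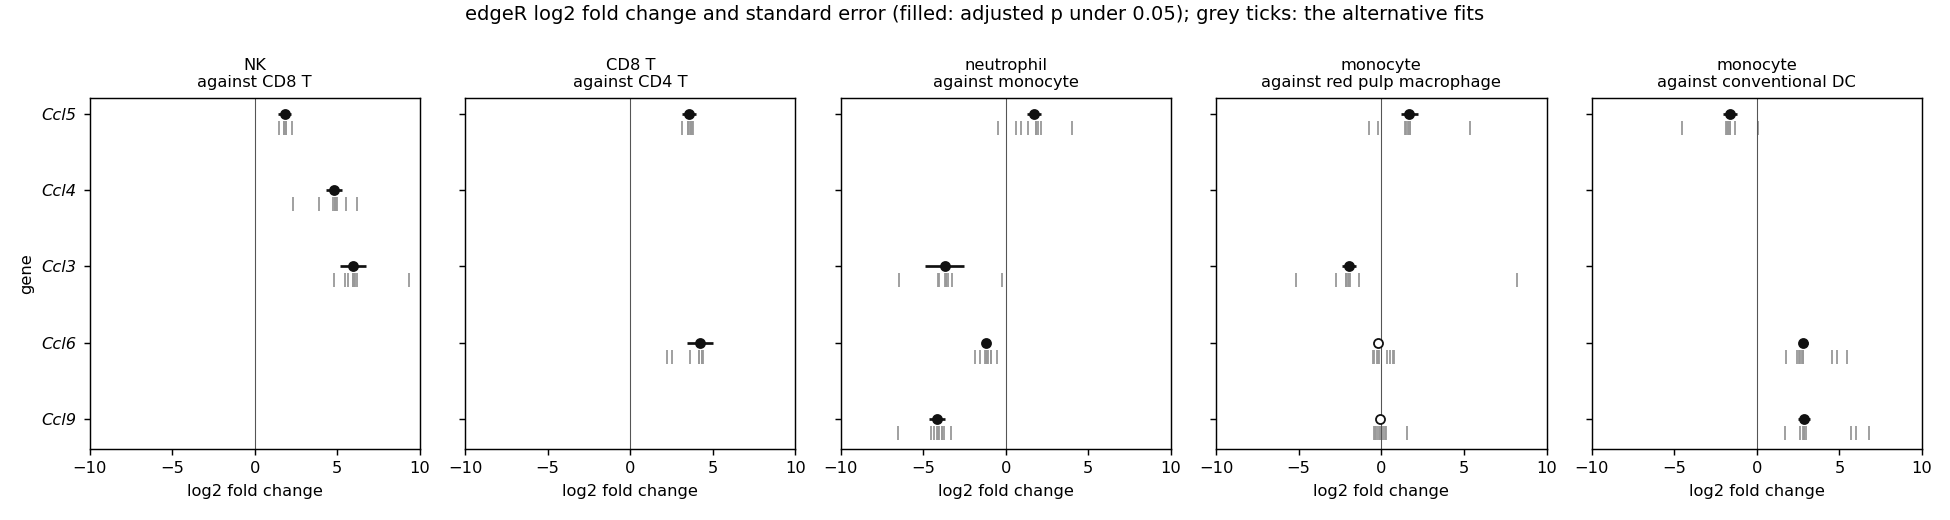
Points give the edgeR log2 fold change of the class named on top against that below it, with standard errors, for the 16 folds reported; filled points passed the threshold and grey ticks are the alternative fits. Ccl9 in neutrophils against monocytes keeps its side in every fit, while the folds between monocytes and red pulp macrophages fall on both sides of 0, and the tick at 8.23 was fitted against a gate at 0 and is no measure of size.

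Between monocytes and red pulp macrophages, 2.68% of genes passed in either direction and 2 of the 5 did. The median log2 fold of the 5 was -0.17, against 0.14 over all genes. Ccl6 and Ccl9 were not called, with log2 folds of -0.17 (SE 0.18, edgeR adjusted p 0.801) and -0.09 (SE 0.25, adjusted p 0.949). Without the basophil-marker droplets both were called higher in monocytes, by 0.75 (edgeR adjusted p 0.0440) and 1.55 (adjusted p 2.75e-04). For Ccl6 the libraries then differed in order. Main1 had 1604 CPM in macrophages against 1387 CPM in monocytes, and Main2 had 238 against 943 CPM. Ccl3 was called lower in monocytes (-1.97, SE 0.43, edgeR adjusted p 0.00127). Without the basophil-marker droplets the macrophage gate held 0 UMIs of Ccl3 in 57 droplets and the call turned to higher in monocytes (adjusted p 0.0249). Of the 23 monocyte UMIs, 13 lay in the 3 droplets with NK markers. Ccl5 was called higher in monocytes (1.70, SE 0.50, edgeR adjusted p 0.0409), a call that passed in 5 of 11 fits, whose folds ran from -0.76 to 5.39.

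Against the conventional DC gate, where 5.44% of genes passed and 3.32% were higher, monocytes had Ccl6 and Ccl9 higher and Ccl5 lower (2.12% of all genes were lower). The median log2 fold of the 5 genes was 0.25, against 0.04 over all genes. For Ccl6 and Ccl9 the log2 folds were 2.81 (SE 0.26, edgeR adjusted p 1.38e-15) and 2.87 (SE 0.37, adjusted p 1.71e-09), and both passed in all 11 fits. Ccl5 was lower in monocytes (-1.62, SE 0.41, edgeR adjusted p 0.00556). It passed in 7 of 11 fits, and with gates at a posterior over 0.9 the fold was 0.05.

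Other genes of the chemokine system were sparse. Of 34 further chemokine ligands listed, 6 were in the table, and 4 of these had enough UMIs to be tested. Xcl1, a ligand of cross-presenting dendritic cells, was higher in NK than in CD8 T droplets (log2 fold 3.94, SE 0.89, edgeR adjusted p 0.00307), with 437 and 78.9 CPM in the NK gate. Ccl24, an eotaxin, was lower in monocytes than in red pulp macrophages (-3.29, SE 0.56, edgeR adjusted p 9.12e-06). Cxcl16, the membrane-bound ligand of Cxcr6, was lower in monocytes than in conventional DC droplets (-2.67, SE 0.66, edgeR adjusted p 0.00383). Across the 5 comparisons these 4 genes gave 1 call in 3 comparisons and 0 in 2, and their median log2 fold ran from -0.61 to 2.83, against -0.25 to 0.14 over all genes tested.

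Among receptors, Ccr1 had 293 UMIs, Ccr3 83 and Ccrl2 101. Ccr1, the shared receptor of several of these ligands, was higher in neutrophils than in monocytes (log2 fold 2.77, SE 0.70, edgeR adjusted p 0.00397), with 58.9 and 109 CPM in the neutrophil gate against 26.9 and 6.78 CPM in the monocyte gate.

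Over the 14 classes, likeness was measured as Pearson's r of log2(CPM + 10), averaged over libraries, among genes with 50 or more UMIs. It is a description over 14 points that share libraries and depth. Basophil-marker droplets stayed in their gates, where they held all 50 Ccl3 UMIs of red pulp macrophages and 51 of 63 of the other CD11b gate. Their part in the likeness was not tested. The 3 genes most like Ccl5 were Osbpl3 (r 0.92), Lfng (0.90) and Nkg7 (0.89), and those most like Ccl4 were Klrk1 (0.90), Klre1 (0.88) and Cd244a (0.88). Ccl3 was most like Cd244a (0.93), Arsb (0.92) and Olfm1 (0.89). Ccl6 was most like Csf1r (0.97), Gatm (0.97) and Clec4a1 (0.96), and Ccl9 like Clec4a3 (0.98), Clec4a1 (0.97) and Tubb6 (0.96). With a minimum of 100 UMIs, Osbpl3 (60 UMIs), Olfm1 (50) and Tubb6 (51) dropped out, and the other genes named remained. Among the 5 genes themselves the closest pairs were Ccl6 with Ccl9 (0.93) and Ccl3 with Ccl4 (0.86), and the least alike were Ccl5 and Ccl9 (0.18).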

How the data were processed

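The authors deposited raw counts, 1 UMI count per gene and droplet and 1 tag count per antibody and droplet. Cell Ranger 3.0.2, bcl2fastq and mm10 were used per the submitters' processing notes; no source here names the tool that counted antibody tags. The sparsest gene was seen in 15 droplets and the shallowest droplet held 1098 UMIs, so low values had been filtered; doublets were not removed here. Symbols were found for 11682 of 11713 identifiers. Antibodies were scaled by the centred log-ratio across droplets and split by a Gaussian mixture of 2 components (scikit-learn 1.9.0, posterior above 0.5; NKp46 at 5 counts). UMIs were summed per class and library. edgeR 4.0.16 (R 4.3.3, TMM, class and library terms, 14 classes in 1 fit of 28 sums, 13 residual and 81.8 prior degrees of freedom) tested genes with 50 or more UMIs. The library term pairs the classes because both come from the same 2 libraries. DESeq2 1.42.0 was an alternative. A fold is printed where it passed or where a class held 50 UMIs. The named genes were the 5 members, the 3 genes most like each, and listed ligands and receptors, not all of which are reported here. Members and lists were chosen with earlier results of these data known.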

Additional observations from a re-analysis of the deposited data

How the results depend on the processing

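Counts of genes called were within 1.5 times the values given in 31 of 44 alternatives. In the order NK against CD8 T, CD8 T against CD4 T, neutrophil against monocyte, monocyte against red pulp macrophage and monocyte against conventional DC, edgeR's main counts were 179, 59, 714, 256 and 519. Without the replicate block (the library term) they were 128, 39, 624, 210 and 444. Of the 16 folds given, Ccl5 lost its call without that block between monocytes and red pulp macrophages (adjusted p 0.181) and between monocytes and conventional DCs (adjusted p 0.0552), and no other call changed with it. Fitting only the 2 classes compared gave 230, 44 and 335 for the last 3 comparisons. Scaling antibodies within each droplet gave 104, 397, 165 and 273 for all but CD8 T against CD4 T. CD8 T against CD4 T gave 92 with no filter on low counts and 31 with DESeq2. DESeq2 called 152 between monocytes and red pulp macrophages, gates at a posterior over 0.9 gave 295 between monocytes and conventional DCs, and droplets under 4000 UMIs gave 467 between neutrophils and monocytes. A posterior over 0.9 gave no value for either T-cell comparison, since too few CD8 T droplets were left.

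Of 156 alternative fits of the 16 folds, 25 kept direction but lost the call, 13 changed sign and the rest kept both. Scaling antibodies within each droplet turned Ccl5 to -0.48 between neutrophils and monocytes. Between monocytes and red pulp macrophages the same scaling gave -0.76 for Ccl5 and 0.22 for Ccl9. In that comparison Ccl6 was 0.51 at a posterior over 0.9, and droplets under 4000 UMIs gave 0.34 for Ccl6 and 0.072 for Ccl9. There too, leaving out the droplet of most UMIs of each gene gave -0.22 for Ccl5, 0.72 for Ccl6 and 0.28 for Ccl9. Leaving out basophil-marker droplets gave 0.75 for Ccl6, 1.55 for Ccl9 and 8.23 for Ccl3, the last against a gate at 0 and therefore dependent on the prior count and no bound. Ccl5 between monocytes and conventional DCs was 0.053 at a posterior over 0.9. Leaving out either kind of droplet was chosen after seeing the data, and the causes of these changes were not tested. With 1 library left out there is no test: Ccl5 between neutrophils and monocytes was -2.78 without Main1 and 2.62 without Main2. Between monocytes and conventional DCs, Ccl9 ranged from 1.80 without Main2 to 6.17 without Main1, and Ccl6 from 2.22 to 4.02. Without Main2 the CD8 T gate held no UMI of Ccl3 or Ccl4, the neutrophil gate none of Ccl3 and the CD4 T gate none of Ccl6, and those fitted folds (10.36, 12.4, -6.42 and 7.08) are no bounds. Thinning to 1000 UMIs moved 33 of 85 shares of droplets outside their binomial interval, and classes with few UMIs of a gene cannot show small differences at this depth.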

Other observations

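Among the 148 droplets that no gate took, the 5 with basophil markers held 40 of 47 UMIs of Ccl3, 37 of 45 of Ccl4, 23 of 25 of Ccl6 and 57 of 63 of Ccl9. Mixed droplets, which carry B-cell and other antibodies at once, held 24.5% of all Ccl6 UMIs and 16.2% of all Ccl9 UMIs. The 27 droplets with CD3 but neither CD4 nor CD8a held 74 UMIs of Ccl6, all in Main2, of which 48 lay in droplets with at least 2 monocyte marker genes.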
